A study of Saccharomyces cerevisiae with 71 samples.

Results

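Charging of tRNATrp, the tRNA that carries tryptophan to the ribosome, was followed through 1 microarray probe, Trp-3, which was chosen by its name and is the Trp probe among the 41 tRNA probes of the arrays. Its values were read in all 26 depleted cultures, 13 of the wild-type strain and 13 of the gcn2Δ strain, and on the arrays of tRNA abundance. Both strains descend from the same parent and were made prototrophic, with intact LEU2 and TRP1, so that each could make its own Trp. The wild-type strain also carries URA3 and an intact GCN2, and in the gcn2Δ strain the kinase gene is replaced by URA3 (gcn2::URA3). Cells were grown in synthetic complete medium with dextrose and ammonium sulfate and moved to medium without Trp, without Trp, Phe and Tyr, without Arg, without Arg but with added ornithine (Arg+Orn), without His, or without Leu. Cultures of the first 5 media were taken at 15 and 60 min, and those without Leu at 5, 45 and 120 min. The arrays of each combination of strain, medium and time were treated as 1 culture, which no label states. Each experiment and strain had a reference culture, labelled 5 min in the Leu experiment and 0 min in the others. Whether separate flasks were used for the times is not given in the sources used here. Wild-type and gcn2Δ were each 1 strain, so that the effect of the deletion and other differences between these strains cannot be told apart.

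tRNATrp reads the single codon for tryptophan and is charged by the tryptophanyl-tRNA synthetase Wrs1. Yeast makes Trp from chorismate, the branch point that also leads to Phe and Tyr. The entry into this shared pathway is catalyzed by Aro3 and Aro4, which are inhibited by Phe and Tyr respectively, and genes of the pathway are activated by the transcription factor Gcn4. Gcn2 is the kinase that senses uncharged tRNA, phosphorylates eIF2 and thereby raises translation of GCN4 mRNA. The comparisons below describe charging of tRNATrp in a strain with and a strain without this kinase when Trp, other amino acids, or all aromatic amino acids are removed.

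An amino acid on a tRNA shields its 3' terminus from periodate, and oxidized tRNA is not labelled. Signal from RNA treated with periodate therefore counts charged tRNA, and signal from RNA without that treatment counts all tRNA, in the other dye of the same array. The deposited value is a ratio, charged over total tRNA divided by that same quantity in the reference culture. It was used as log2, centred on the median of the array and averaged over the arrays of a culture, and is called the log2 charging change. A value of 0 therefore means that tRNATrp changed like the median tRNA of the array, and the percentage of tRNATrp that was charged is not known. Of the 26 cultures 20 had a pair of arrays with exchanged dyes, and 6 had 1 array. On the 22 reference arrays every charging ratio is exactly 1, so that the references show no spread. The arrays carry tRNA probes, so that the loss of GCN2 itself was not checked here.

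The direction of the 4 Trp arrays with total tRNA in Cy5 is likely to be inverted, although no label says so, and these arrays were turned. As deposited, the wild-type culture at 15 min gave tRNATrp ratios of 0.507 on the Cy3 array and 1.90 on the Cy5 array, named by the dye of total tRNA. At 60 min it was at 0.911 and 1.41. In the gcn2Δ culture it was at 0.525 and 2.14 at 15 min, and at 0.0709 and 14.4 at 60 min. Partner arrays thus opposed each other in all 4 cultures. The correlation between partners across the other 40 probes, with Trp-3 left out, was also below 0 in all 4 pairs, between -0.76 and -0.12. In the 10 dye-swapped pairs of the Trp/Phe/Tyr, Arg, Arg+Orn and His experiments this correlation lay between -0.28 and 0.96, with 1 below 0. The 6 Leu pairs gave -0.49 to 0.25, with 5 below 0, so that the Cy5 arrays of that experiment have no settled direction. These are correlations across probes, which are not independent replicates.

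Without Trp, charging of tRNATrp fell to about the same level in both strains at 15 min. At 60 min it was far lower still in the gcn2Δ strain, whereas the wild-type culture was nearer to its reference. In the wild-type culture at 15 min the log2 charging change was -0.98 and -0.92 on its arrays. At 60 min the arrays gave -0.13 and -0.48. The gcn2Δ culture had -0.94 and -1.10 at 15 min and -3.81 and -3.85 at 60 min. With the Cy5 arrays turned, the gcn2Δ arrays at 60 min are the lowest of all 46 arrays, and the arrays of a pair differed by 0.04 to 0.35 in the Trp experiment. The culture averages correspond to 51.7% of the reference level at 15 min and 80.7% at 60 min for the wild type, and to 49.3% and 7.04% for gcn2Δ. With the Cy5 arrays left as deposited the averages would be -0.03 and 0.18 for the wild type, 0.08 and 0.02 for gcn2Δ, because the partners cancel.

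When Phe and Tyr were removed together with Trp, tRNATrp was nearer to the reference, and 1 of 4 cultures lay further from it than -0.23 on the log2 scale. The wild-type cultures had log2 charging changes of -0.23 at 15 min and 0.00 at 60 min, where Trp-3 was itself the median probe of the array. The gcn2Δ culture was at -0.08 at 15 min. At 60 min its arrays gave -0.33 and -0.58, an average of -0.46. The wild-type cultures and the 15-min gcn2Δ culture of this medium rest on 1 array each.

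**Figure D1:**
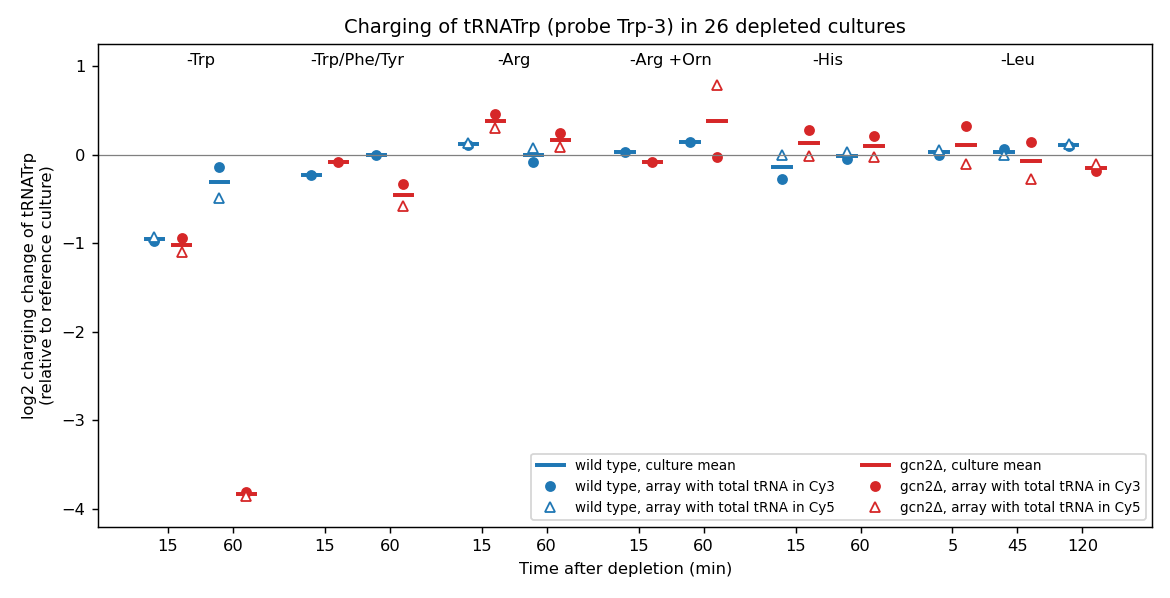
Log2 charging change of tRNATrp (vertical axis) in each depleted culture by medium and time in min (horizontal axis), wild type in blue and gcn2Δ in red; filled circles and open triangles are arrays with total tRNA in Cy3 and Cy5, and bars are culture means. The gcn2Δ culture at 60 min without Trp lies at -3.83, and the 18 cultures of media with Trp lie between -0.14 and 0.38.

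In the 18 cultures of media that keep Trp the log2 charging change of tRNATrp lay between -0.14 and 0.38, with a median of 0.06 and an SD of 0.15. Probe Trp-3 was of ordinary variability in these cultures: its SD was the sixteenth lowest of the 41 probes, whose SDs ran from 0.06 to 0.90 with a median of 0.16. In the 9 wild-type cultures it lay between -0.14 and 0.15, and in the 9 gcn2Δ cultures between -0.14 and 0.38. The strains therefore overlap. The Leu arrays enter these values as deposited.

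The 3 highest values of tRNATrp were those of gcn2Δ cultures without Arg, 1 of them with ornithine. In the 15-min culture without ornithine Trp-3 was the highest of the 41 probes at 0.38, with Phe-3 close behind at 0.36. The 4 Arg probes of this culture averaged -0.92, and all values are relative to the median probe. Its 2 arrays gave 0.45 and 0.30 for Trp-3, a wider gap than that to Phe-3. At 60 min they gave 0.24 and 0.09, while the mean of the 4 Arg probes of the same culture was -3.01. Set against the other 5 cultures of the His, Arg and Arg+Orn experiments at 60 min, Trp-3 of this culture differed by 0.05 (95% interval -0.40 to 0.49, limma with Benjamini-Hochberg adjustment, adjusted p = 0.973), while 7.32% of the probes were called, all 3 of them Arg probes. With ornithine, the gcn2Δ culture at 60 min had an average of 0.38, but its arrays gave -0.03 and 0.78, the largest difference within a pair. This average therefore rests on 1 array. The gcn2Δ culture at 15 min with ornithine was at -0.08, and the wild-type cultures were at 0.03 and 0.15 at 15 and 60 min. Each of these values rests on 1 array. Without Arg alone the wild-type cultures were at 0.12 and -0.01.

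Without His, the wild-type strain had -0.14 and -0.01 at 15 and 60 min, and the gcn2Δ strain had 0.13 and 0.10. Without Leu, wild-type values were 0.03, 0.03 and 0.11 at 5, 45 and 120 min. In the gcn2Δ strain it was at 0.11, -0.07 and -0.14 in the same order, with the arrays as deposited. There the Cy3 arrays gave 0.32, 0.14 and -0.19 and the Cy5 arrays -0.11, -0.27 and -0.10. The arrays thus had opposite signs at 5 and 45 min, and the averages depend on the unsettled direction of the Cy5 arrays. The lowest Leu average, gcn2Δ at 120 min, lay beside the lowest culture of the other media with Trp, which was at -0.14 as well. The averages of both strains without Leu differed from the 6 cultures of the His, Arg and Arg+Orn experiments by -0.01 at 5 min, -0.15 at 45 min and -0.14 at 120 min. None was called by limma with Benjamini-Hochberg adjustment, with adjusted p values of 0.989, 0.854 and 0.848, and with 0 probes called or at an unadjusted p below 0.05. With the Cy5 arrays of this experiment turned, the differences were 0.02, -0.0076 and -0.16, and none was called. The times differ between these media, since the Leu cultures at 5 min were set against those at 15 min and the later ones against those at 60 min. Their references differ as well, labelled 5 min for Leu and 0 min for the other media.

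Over the media with Trp no shift of tRNATrp was called. The mean of the 6 cultures of the His, Arg and Arg+Orn experiments was 0.07 ± 0.18 (SD, n = 6) at 15 min and 0.13 ± 0.14 (SD, n = 6) at 60 min. Against 0 these gave adjusted p values of 0.964 and 0.463 in limma with Benjamini-Hochberg adjustment, and 0.406 and 0.125 in an exact two-sided sign-flip permutation test, which cannot fall below 0.0313. The 15-min mean was 0.01 without the gcn2Δ Arg culture and 0.12 without the wild-type His culture. The 60-min mean was 0.08 without the gcn2Δ Arg+Orn culture and 0.07 with the Cy3 arrays alone. The gcn2Δ cultures exceeded the wild-type cultures of these media by 0.14 at 15 min (95% interval -0.22 to 0.50) and by 0.17 at 60 min (95% interval -0.09 to 0.43). At 60 min the gcn2Δ culture was higher in all 3 media. Neither difference was called (limma with Benjamini-Hochberg adjustment, adjusted p = 0.757 and 0.417; exact permutation p = 0.4 and 0.2, with 0.1 the smallest possible for 3 against 3). With the strains paired by experiment, which was chosen after seeing the data, the intervals were -0.26 to 0.54 at 15 min and -0.03 to 0.37 at 60 min, and again neither was called (limma with Benjamini-Hochberg adjustment, adjusted p = 0.817 and 0.299; exact sign-flip p = 0.5 and 0.25, with 0.25 the smallest possible). The 15-min difference was 0.02 without the gcn2Δ Arg culture, 0.07 without the wild-type His culture, 0.25 without the gcn2Δ Arg+Orn culture and 0.26 with the Cy3 arrays alone. The 60-min difference was 0.09 without the gcn2Δ Arg+Orn culture. Differences among the 3 media were not called either (limma F test, adjusted p = 0.916 at 15 min and 0.833 at 60 min).

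Each culture without Trp was set against the 6 cultures of the same time from the His, Arg and Arg+Orn experiments, which supply the spread that 1 culture cannot. Values were tested by limma, p values were adjusted by Benjamini-Hochberg for the 41 probes tested, and an adjusted p below 0.05 is called changed. The spread of the lone culture is taken to equal that of the 6, and the smallest two-sided exact permutation p for 1 against 6 is 0.143. At 15 min without Trp the difference was -1.03 (95% interval -1.48 to -0.57, adjusted p = 0.038 from limma) in the wild-type strain. For gcn2Δ it was -1.09 (95% interval -1.55 to -0.64, adjusted p = 0.026 from limma). In each of these comparisons 2.44% of the probes were called, which is Trp-3 alone. Both calls lie near the threshold: leaving out 1 of the 6 comparison cultures ended the wild-type call with any of 4 of them left out (wild-type Arg or Arg+Orn, gcn2Δ His or Arg+Orn) and the gcn2Δ call with any of 3 (wild-type Arg or Arg+Orn, gcn2Δ His). The highest adjusted p from limma was then 0.114 in the wild type and 0.0809 in gcn2Δ. With total tRNA in Cy3 alone neither was called, at an adjusted p from limma of 0.163 and 0.198.

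At 60 min without Trp the wild-type culture differed from the 6 by -0.44 (95% interval -0.82 to -0.05), which was not called (limma with Benjamini-Hochberg adjustment, adjusted p = 0.985), and 0 probes were called, with 1 at an unadjusted p below 0.05. With the Cy3 arrays alone, which were not turned, this difference was -0.21 (adjusted p = 0.85 from limma). The gcn2Δ culture differed by -3.96 (95% interval -4.34 to -3.57, adjusted p = 3.0e-06 from limma). Trp-3 and Pro-5, one of the 2 Pro probes, were called there, 4.88% of the probes. Without Trp, Phe and Tyr, Trp-3 was not called in any of the 4 cultures. The difference nearest to a call was that of the gcn2Δ culture at 60 min, -0.58 (95% interval -0.97 to -0.20, adjusted p = 0.328 from limma). The wild-type differences were -0.31 at 15 min and -0.13 at 60 min, and that of gcn2Δ at 15 min was -0.15. All these comparisons share their control cultures within a time point.

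The 2 media without Trp were also compared with each other, in a fit whose spread again came from the 6 cultures. They belong to separate experiments, each with its own reference culture. The effect of removing Phe and Tyr as well therefore cannot be told apart from a difference between experiments. At 60 min tRNATrp of the gcn2Δ strain was lower on the log2 scale without Trp alone than without all 3 amino acids (difference -3.37, SE 0.21, 95% interval -3.88 to -2.87, limma with Benjamini-Hochberg adjustment, adjusted p = 5.2e-05). This is a 10.4-fold difference, and Trp-3 was the called probe, 2.44% of the probes. At 15 min the gcn2Δ difference was -0.94 (95% interval -1.54 to -0.35, adjusted p = 0.280 from limma). For the wild type it was -0.72 (95% interval -1.31 to -0.13, adjusted p = 0.326 from limma) at 15 min and -0.31 (95% interval -0.81 to 0.19, adjusted p = 0.511 from limma) at 60 min. Of these 4 differences 1 was thus called, and each compares 1 culture with 1 culture.

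Strain differences, gcn2Δ minus wild type within an experiment and time, were tested with 1 experiment set against the His, Arg and Arg+Orn experiments. In these 3 experiments the difference for tRNATrp was 0.27, 0.25 and -0.11 at 15 min and 0.11, 0.17 and 0.23 at 60 min. Without Trp it was -0.07 at 15 min, a difference of -0.21 from their mean (95% interval -1.01 to 0.60, limma with Benjamini-Hochberg adjustment, adjusted p = 0.957). At 60 min it was -3.52, a difference of -3.69 from their mean (95% interval -4.08 to -3.30, adjusted p = 0.0018 from limma). Trp-3 was the called probe in that comparison, 2.44% of the probes. Without Trp, Phe and Tyr the strain difference was 0.15 at 15 min and -0.46 at 60 min. The latter differed by -0.63 from the mean of the 3 experiments and was not called (95% interval -1.02 to -0.23, limma with Benjamini-Hochberg adjustment, adjusted p = 0.140). The interval at 15 min without Trp is wide, and reaches down to -1.01. An exact permutation of 1 experiment against 3 cannot give p below 0.25.

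**Figure D2:**
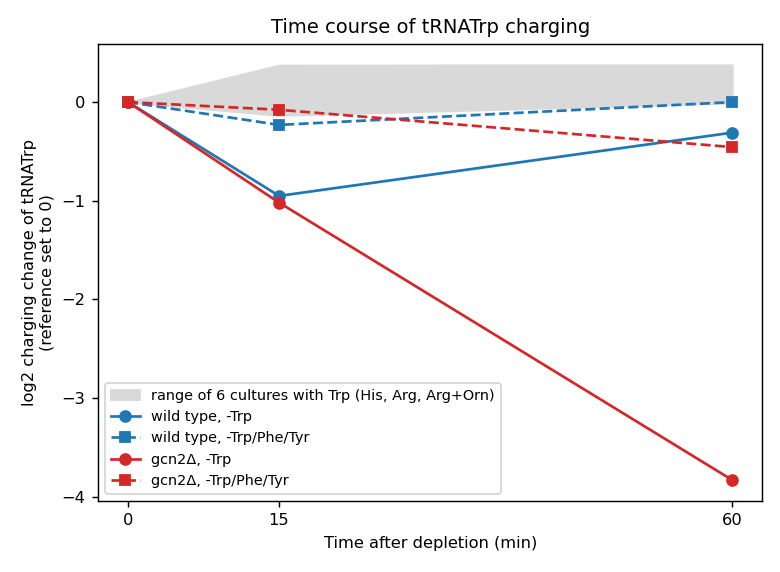
Log2 charging change of tRNATrp (vertical axis) against time in min (horizontal axis) without Trp (solid) and without Trp, Phe and Tyr (dashed), wild type in blue and gcn2Δ in red, with the reference set to 0. The grey band is the range of the 6 cultures of the His, Arg and Arg+Orn experiments; the 2 strains lie at -0.95 and -1.02 at 15 min without Trp and at -0.31 and -3.83 at 60 min.

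Between 15 and 60 min without Trp, tRNATrp fell by 2.81 on the log2 scale in the gcn2Δ strain, while the wild-type value changed by 0.64. In the 6 series of the His, Arg and Arg+Orn experiments the same interval gave changes between -0.21 and 0.46, the highest of them in the gcn2Δ series with ornithine. Relative to these, the gcn2Δ fall was -2.86 (95% interval -3.44 to -2.29, limma with Benjamini-Hochberg adjustment, adjusted p = 0.00029), with Trp-3 the called probe, 2.44% of the probes. The wild-type change was 0.59 (95% interval 0.01 to 1.16) and was not called (adjusted p = 0.635 from limma). On the Cy3 arrays alone, which were not turned, this wild-type change relative to the 6 series was larger, at 0.86. With 1 of the 6 series left out it was 0.53 to 0.67. Expressed per min, the gcn2Δ change was -0.068 from the reference to 15 min and -0.062 from 15 to 60 min. The wild-type rates were -0.063 and then 0.014. The decline of the gcn2Δ strain thus had nearly the same slope on the log2 scale in both intervals, a slope that the wild-type strain had in the first interval. These slopes come from 1 culture per point and have no error of their own.

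Ordered by tRNATrp charging, the 6 lowest of the 26 cultures were all of media without Trp. The gcn2Δ culture at 60 min without Trp stood apart, 2.81 from the next on the log2 scale. The 15-min cultures without Trp of both strains followed at -1.02 and -0.95, and differed by less than the 0.16 between the arrays of one of them. The gcn2Δ culture at 60 min without Trp, Phe and Tyr (-0.46), the wild-type culture at 60 min without Trp (-0.31) and the wild-type culture at 15 min without Trp, Phe and Tyr (-0.23) came next, with gaps of 0.15, 0.08 and 0.09 to the culture above, below the median difference of 0.16 within the 20 array pairs. The other 2 cultures without Trp lay inside the range of the media with Trp, and neighbours within that range were at most 0.21 apart. This order rests on the turned Cy5 arrays: with them as deposited, none of the 4 cultures without Trp alone would be among the 6 lowest. On the Cy3 arrays alone the gcn2Δ culture at 60 min (-3.81) and the 15-min cultures of the wild type (-0.98) and gcn2Δ (-0.94) were the lowest of the 26, and a culture without His (wild type, 15 min, -0.27) was among the 6 lowest.

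**Figure D3:**
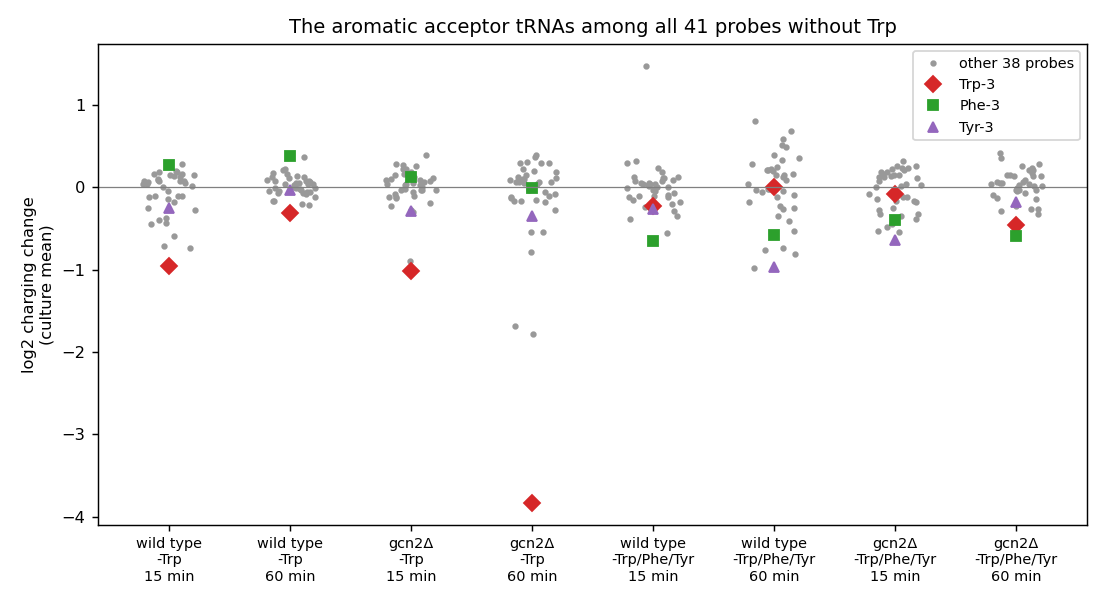
Log2 charging change (vertical axis, culture means) of all 41 probes in the 8 cultures without Trp (horizontal axis), with Trp-3 in red, Phe-3 in green, Tyr-3 in purple and the other 38 probes in grey. With the Cy5 arrays turned, Trp-3 is the lowest probe in the 4 cultures without Trp alone (on the Cy3 arrays in 1 of the 4), and Phe-3 or Tyr-3 lies below it in the 4 cultures without Trp, Phe and Tyr.

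With the Cy5 arrays turned, Trp-3 was the lowest of the 41 probes in all 4 cultures without Trp alone and on 5 of their 8 arrays, which are the 4 turned arrays and 1 Cy3 array. On the Cy3 arrays alone its rank, counted from the lowest probe, was 5 and 6 in the wild type at 15 and 60 min and 2 and 1 in gcn2Δ. In averages with the Cy5 arrays as deposited these ranks would be 24, 39, 28 and 22. In the gcn2Δ culture at 60 min the next probe was Pro-5 at -1.78. At 15 min the next was Met-6, a Met probe, at -0.89 in gcn2Δ and -0.73 in wild type, and for the wild type at 60 min it was Glu-3, a Glu probe, at -0.22. On the 33 arrays of media with Trp, Trp-3 was the lowest probe on none and the highest on 2. Without Trp, Phe and Tyr, Trp-3 ranked between the second and the twenty-first lowest of its cultures. There 1 probe was lower in the gcn2Δ culture at 60 min, which was Phe-3, and 19 at 15 min, led by Tyr-3, Lys-4 and Asn-3. In the wild-type strain 7 were lower at 15 min, led by Phe-3, Pro-5 and Ile-5, and 20 at 60 min, led by Pro-5, Tyr-3 and Pro-6.

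The other aromatic acceptors, tRNAPhe (Phe-3) and tRNATyr (Tyr-3), were not called when Trp alone was removed. In the gcn2Δ culture at 60 min without Trp they differed from the 6 comparison cultures by -0.18 and -0.17, and in the wild-type culture by 0.21 and 0.15. At 15 min the gcn2Δ differences were 0.05 and -0.28, and those of the wild type 0.20 and -0.25. Of these 2 probes 0 were called in the 4 cultures by limma with Benjamini-Hochberg adjustment, or reached an unadjusted p below 0.05. When all 3 amino acids were removed, Phe-3 of the wild type differed from the comparison cultures by -0.73 at 15 min and -0.75 at 60 min, and that of gcn2Δ by -0.47 and -0.76. Tyr-3 differed by -0.25 and -0.78 in wild type and by -0.64 and 0.0025 in gcn2Δ. Again 0 of the 2 were called by limma. The smallest adjusted p, 0.144, was that of Phe-3 in the wild-type culture at 60 min, and 4 of these 8 values had an unadjusted p below 0.05. In that culture 4.88% of the probes were called, which were Cys-3, a Cys probe (-0.71), and Thr-7, a Thr probe (0.62), from 1 array.

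Other cognate tRNAs are given for scale. In the gcn2Δ strain at 60 min the 4 Arg probes lay between -3.31 and -2.39 without Arg, beside -3.83 for Trp-3 without Trp, and averaged -1.42 with ornithine. His-3, the probe of tRNAHis, was at -0.15 without His. The 4 Leu probes were between -0.51 and 0.01 at 45 min without Leu and between -0.10 and 0.10 at 120 min, with the arrays as deposited. Charging changes of different tRNAs are each relative to their own reference.

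Which probes were most like Trp-3 over all cultures depended on 1 culture. Over the 26 cultures Pearson's r was highest for Pro-5 (0.58), Ala-5 (0.55) and Met-6 (0.51), but Spearman's rho was 0.02, 0.47 and 0.05. Without the gcn2Δ culture at 60 min without Trp, where Pro-5 was at -1.78, Met-6 at -1.68 and Ala-5 at -0.78, r was -0.00052 for Pro-5 and 0.15 for both Ala-5 and Met-6. Over the 18 cultures of media with Trp the most alike were Val-8 (r 0.83), Phe-3 (0.83) and Leu-11 (0.82), which are probes of tRNAVal, tRNAPhe and tRNALeu. With the 2 cultures farthest from the median left out, gcn2Δ Arg at 15 min and gcn2Δ Arg+Orn at 60 min, these were 0.74, 0.65 and 0.65. The 3 probes did not stand apart over the 18 cultures, since Val-6 was close behind (r 0.79). Tyr-3, the other aromatic acceptor, was the least alike (r -0.79). In the gcn2Δ culture at 15 min without Arg the log2 charging change was 0.16 for Val-8, 0.36 for Phe-3 and 0.30 for Leu-11, beside 0.38 for Trp-3. The Leu cultures enter these correlations with their Cy5 arrays as deposited, whose direction is unsettled, and correlations with them turned or left out were not computed. Points of these correlations share reference cultures and the centring of their array, and the correlations are descriptions of these cultures.

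The abundance of tRNATrp was measured in the gcn2Δ strain at 60 min without Trp, with tRNA of the depleted and of the reference culture on the same array. Relative abundance was 0.792 where the reference was labelled with Cy3 and 0.832 where it was labelled with Cy5, or -0.34 and -0.27 on the log2 scale. Trp-3 was the lowest probe on both arrays, with an average of -0.30 ± 0.05 (SD, n = 2 arrays). The next lowest were Val-6 and Ile-5, both at -0.15, while Phe-3 was at 0.02, Tyr-3 at 0.15 and the highest probe, Pro-5, at 0.36. The charging change of this strain, medium and time was -3.83 with the Cy5 array turned and -3.81 on the Cy3 array. The labels do not say whether abundance and charging were measured in RNA of the same culture. Added on the log2 scale, they give -4.13 for the amount of charged tRNATrp, which is 5.71% of the reference amount. The next lowest sum was that of Met-6, at -1.66. With the Cy5 charging array as deposited the sum for Trp-3 would be -0.28. The abundance was measured for 1 strain, medium and time, so that the abundance has no replicate check, and both quantities are relative to the median tRNA.

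**Figure D4:**
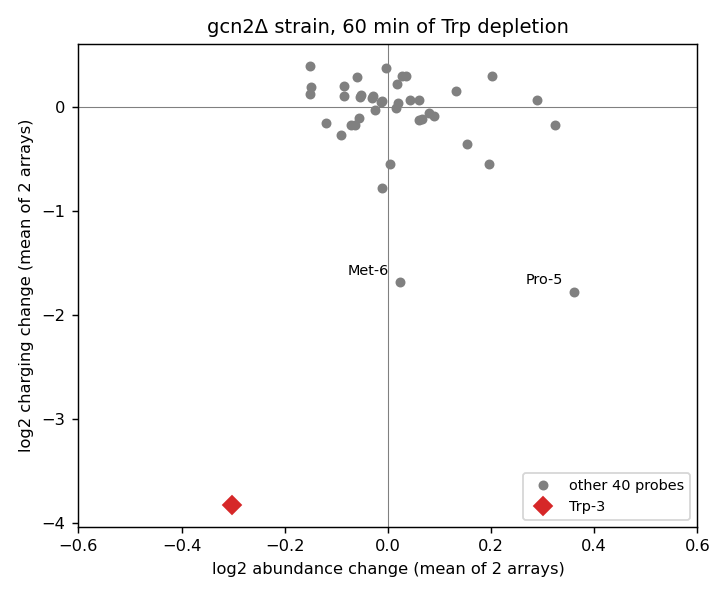
Log2 charging change (vertical axis) against log2 abundance change (horizontal axis) of the 41 probes in the gcn2Δ strain at 60 min without Trp, each the mean of 2 arrays. With the Cy5 charging array turned, Trp-3 (red) is lowest on both axes, at -3.83 for charging and -0.30 for abundance.

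In all, 26 signed differences and 2 F tests were computed for Trp-3, and 6 of these 28 were called. They are the 15-min cultures without Trp of both strains, the gcn2Δ culture at 60 min without Trp, its difference from the medium without all 3 aromatic amino acids, its fall since 15 min, and the strain difference at that time. Each of the 6 uses the Trp arrays that were turned. With these left as deposited none of the 6 was called, but there the opposed partner arrays cancel, so that this setting cannot check the calls. On the Cy3 arrays alone, which were not turned, the gcn2Δ culture at 60 min differed from the comparison cultures by -3.88. Its difference from the medium without all 3 aromatic amino acids was -3.48, its fall since 15 min -2.86 and the strain difference -3.82. These 4 remained called, and the 15-min differences, -1.06 in wild type and -1.03 in gcn2Δ, did not.

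**Figure D5:**
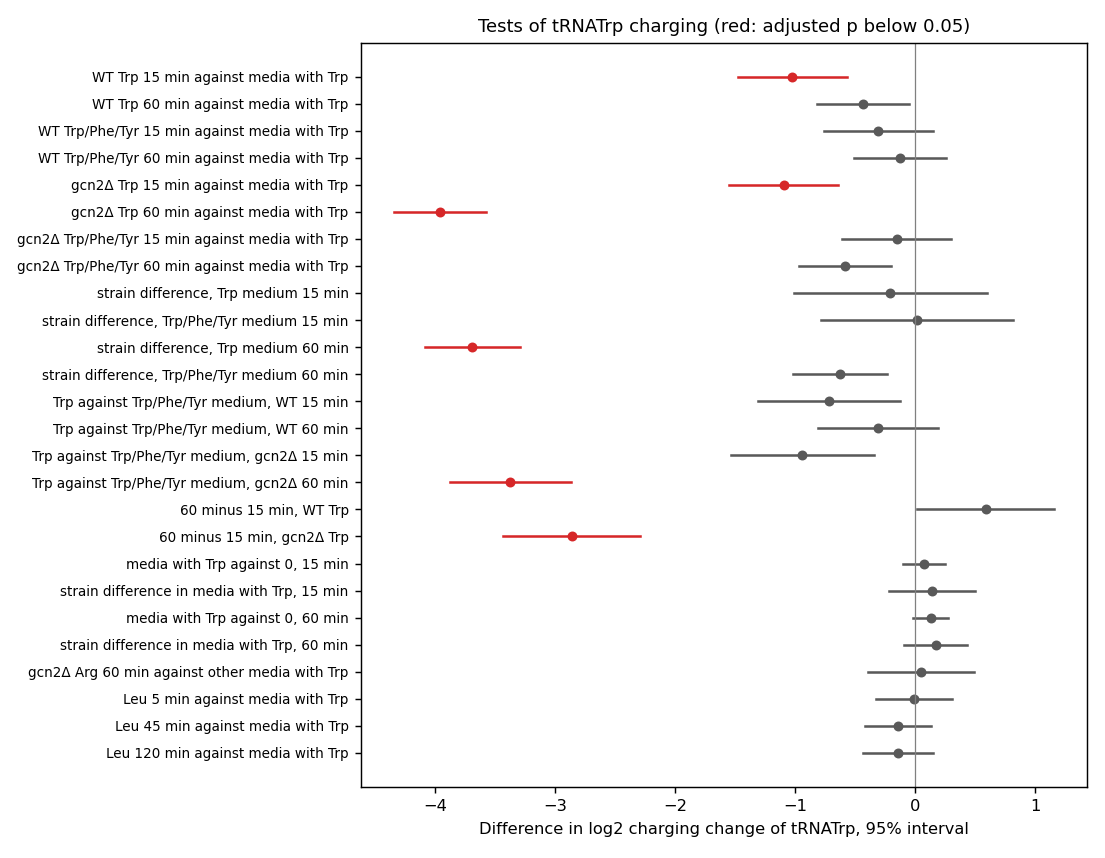
Differences in log2 charging change of tRNATrp (horizontal axis, points) with their 95% intervals from limma (lines) for the 26 signed comparisons named on the vertical axis, in red where the adjusted p was below 0.05. The 4 differences that involve the gcn2Δ culture at 60 min without Trp lie between -3.96 and -2.86, apart from all others.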

How the data were processed

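Per the labels, each charging array held total tRNA in 1 dye and periodate-oxidized tRNA in the other. The authors deposited linear ratio values, each the charged tRNA over total tRNA divided by that of the reference culture, and for abundance the depleted over the reference culture. The deposited ratios were scaled by array, with medians between 0.995 and 1.01 on the 46 arrays of depleted cultures. The scanner and any background correction are not given in the sources used here. No value was missing.

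Log2 was taken with no pseudocount, the 4 Trp arrays with total tRNA in Cy5 were turned, and the median of every array was subtracted. The dye-swapped arrays of a culture were averaged as 1 replicate. They were taken to carry the same RNA, which no label states. Tests used limma 3.58.1 (lmFit, eBayes; R 4.3.3), with Benjamini-Hochberg adjustment over all 41 probes, on 1 culture or experiment against those whose medium keeps Trp. The fit was tested on simulated data. Separate cultures are not replicates of a condition, and the number of arrays limits the precision. The member and the lists were chosen with earlier results of these data known. Named probes are Trp-3, Phe-3 and Tyr-3, the cognates of the other depletions, the 3 probes most correlated with Trp-3, up to 3 probes lower than Trp-3 without Trp, and up to 3 others called per test. Val-6 and Ile-5, the next lowest in abundance, the probes next to Trp-3 in a culture without Trp, and those of the highest abundance or next lowest sum were chosen for their values. Alternative settings concerned the centring, the Cy3 arrays alone, the variance moderation, other comparison cultures, each left out in turn, and the Cy5 arrays of the Trp or Leu experiments in the other direction. Pairing the strains by experiment in media with Trp was added after the data were seen. The sequence of the probe and the position of the tRNATrp genes were not analysed here.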

Additional observations from a re-analysis of the deposited data

Results flagged for a closer look

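The strain difference in tRNATrp charging at 60 min without Trp stood out, because the test of the difference itself was past the threshold. Relative to the His, Arg and Arg+Orn experiments at 60 min it was -3.69, with gcn2Δ lower than wild type in the Trp experiment and higher in these 3. At 15 min the same test gave -0.21, which was not called. A lower gcn2Δ value was not confined to the Trp experiment. Without Trp, Phe and Tyr the strain difference at 60 min was -0.46. Without Leu, with the arrays as deposited, gcn2Δ was at -0.07 and wild type at 0.03 at 45 min, and at -0.14 and 0.11 at 120 min. No sample group of the labels held 4 or more samples, so that samples far from their own group were not searched for. Among the 6 comparison cultures at 15 and at 60 min no culture stood apart by Dixon's test, with gaps of at most 0.476 and 0.543 of the range.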

How the results depend on the processing

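With the Cy5 arrays of the Trp experiment left as deposited, the differences from the comparison cultures became -0.10 (wild type, 15 min), 0.0465 (wild type, 60 min), 0.0034 (gcn2Δ, 15 min) and -0.11 (gcn2Δ, 60 min). Those from the medium without all 3 aromatic amino acids became 0.20, 0.18, 0.16 and 0.47 in the same order, the strain difference at 60 min -0.33, and the gcn2Δ change from 15 to 60 min -0.11. The partner arrays cancel in these averages because their deposited ratios oppose each other, such as 0.0709 and 14.4 in gcn2Δ at 60 min. Under all other alternatives run the 4 calls that involve the gcn2Δ culture at 60 min held, in 13 of 14, 8 of 9, 11 of 12 and 11 of 12 settings. The 15-min calls held in 5 of 14 (wild type) and 6 of 14 (gcn2Δ). They were lost at -0.93 and -1.07 with centring on the mean of probes whose amino acid is in the medium, at -1.06 and -1.03 with the Cy3 arrays alone, at -1.03 and -1.09 without variance moderation and at -0.96 and -1.16 with comparison cultures of the same strain, where fewer cultures enter. Leaving out 1 comparison culture gave -1.07 to -0.96 in the wild type and -1.14 to -1.03 in gcn2Δ, and the strain difference at 15 min without Trp, Phe and Tyr, 0.02, became -0.11 to 0.0809, and -0.11 with the Cy3 arrays alone. The Leu difference at 5 min, -0.01, became 0.0249 with that other centring, 0.0741 with the Cy3 arrays, 0.0206 with the Leu Cy5 arrays turned and -0.0505 to 0.0517 with 1 culture left out, and that at 45 min became 0.0310 with the Cy3 arrays. The cause was not tested, and the other 22 of the 28 tests were called in 0 alternatives. The labels give no replicate numbers, so that no fit had replicates as a block. Pairing the strains by experiment in media with Trp changed no call. The number of cultures, 1 per condition, limits the precision, and the signal over background was not analysed here.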
